A study of Rattus norvegicus with 125 samples.

Results

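The transporters described here carry monocarboxylates (lactate, pyruvate, ketone bodies), dicarboxylates with citrate, and sulfate across the membranes of kidney tubule cells. The 8 genes Slc5a8, Slc5a12, Slc13a1, Slc13a2, Slc13a3, Slc16a1, Slc16a7 and Slc26a1 were taken by symbol from the main expression table, out of 17144 symbols, and each has 1 RefSeq transcript entry there. RNA was sequenced from tubule pieces dissected by hand from collagenase-digested left kidneys of male Sprague-Dawley rats of 200 to 250 g on normal chow. The proximal tubule had 7 libraries for each of its segments S1, S2 and S3. The thin limbs comprised SDL (n = 10), the descending limb of short loops; LDLOM (n = 9) and LDLIM (n = 4), the outer and inner medullary descending limb of long loops; and tAL (n = 7), the ascending one. Thick ascending limb came from medulla (mTAL, n = 7) and cortex (cTAL, n = 7). Distal convoluted tubule (DCT, n = 8), connecting tubule (CNT, n = 6) and collecting duct of the cortex (CCD, n = 11), outer medulla (OMCD, n = 7) and inner medulla (IMCD, n = 8) complete the 14 segments. Glomeruli (n = 5) were used as a description only. A separate experiment used cortical collecting ducts of 5-week-old male Sprague-Dawley rats that all received ddAVP, a vasopressin analogue, at 5 ng/h from a subcutaneous minipump. For 4 days 4 of them took 50 mL of water per day in gelled food (water load) and the other 4 took 25 mL per day (controls).

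Proximal tubule cells take back filtered organic anions with carriers on the luminal side, coupled to sodium, and pass them on or exchange them on the blood side. Slc5a8 and Slc5a12 are the luminal sodium-coupled monocarboxylate carriers, of high and low affinity for lactate. Slc13a2 takes up citrate and other dicarboxylates from the lumen, and Slc13a3 brings dicarboxylates in from the blood side, among them the alpha-ketoglutarate that the organic anion exchangers use. Slc13a1 is the luminal sodium-sulfate carrier and Slc26a1 the blood-side sulfate and oxalate exchanger. Slc16a1 (MCT1) and Slc16a7 (MCT2) are proton-coupled monocarboxylate carriers that reach the membrane with the help of the glycoproteins basigin (Bsg) and embigin (Emb).

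Values are in RPKM, a read count divided by transcript length and by library size, so levels of different genes are compared per length. In the tubule libraries 1438 to 8574 genes stood at 1 RPKM or more (median 4624), and 14 libraries had fewer than 2500. The labels number replicates but do not say that each came from another rat, so the p-values speak of the spread among these libraries, possibly technical. In pieces of tissue fewer cells of a type and less RNA per cell cannot be told apart. Markers of proximal tubule, thick limb and glomeruli were present in the libraries so labelled. No thin limb markers were listed, so the labels SDL, LDLOM, LDLIM and tAL were not checked in this way. The 7 proximal markers summed to 2389 to 8209 RPKM in S1, 4341 to 24768 in S2 and 578 to 11627 in S3. Outside the proximal tubule that sum was at most 8.61 in IMCD but reached 3621 in LDLOM, 633 in OMCD and 628 in SDL, above the lowest S3 library. The 4 thick limb markers summed to 888 to 10171 in mTAL and 2207 to 18566 in cTAL. The 4 podocyte markers summed to 1128 to 3911 in glomeruli.

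A few libraries stood apart. S1 replicate 5 held Cyp24a1 at 17.6 RPKM and Slc7a13 at 207, against at most 1.34 and 4.99 in the other S1 libraries. In S2 Cyp24a1 ranged from 1.48 to 68.1, and Slc7a13 was above 207 in 2 of 7 libraries. S2 replicate 6 had Slc7a13 at 0.0586 and Slc5a2, the early proximal glucose carrier, at 649. In S2 replicate 3 Slc5a2 stood at 58.4 beside Slc7a13 at 784. S3 replicate 5 held the distal convoluted tubule carrier Slc12a3 at 65.8, against at most 0.0108 in the other S3 libraries. Its thick limb markers summed to 456, the highest of S3. This library held Slc13a2 at 87.8, the highest of S3, with Slc13a1 at 27.3 and Slc26a1 at 40.1. SDL replicates 1 and 8 held the proximal phosphate carrier Slc34a1 at 286 and 63.7, LDLOM replicates 1 and 9 at 2329 and 60.1. The tAL replicates 3 and 5 held the thick limb carrier Slc12a1 at 36.0 and 21.9, against at most 2.27 in the other tAL libraries, and tAL replicates 1 and 2 the endothelial marker Emcn at 1971 and 2505. Slc34a1 was also at 286 in OMCD replicate 7 and at 73.2 in cTAL replicate 5, which held Slc13a2 at 6.87 and Slc26a1 at 8.19. Without these 10 libraries outside the proximal tubule the proximal comparison again called 7 members, and the change of Slc16a7 in the thick limbs was 2.92. Among them are the tAL libraries highest in Slc16a7 and the cTAL library lowest in it, so the choice fixes the direction of that change in part. Cyp24a1 and Slc7a13 were chosen as markers after their values were seen. Slc7a13 had its highest mean in S3 (1458, against 222 in S2 and 30.7 in S1), so it does not mark S2 alone. Cyp24a1 is the gene whose segment means were most like those of Slc5a8 (correlation 0.999), so it is no independent marker for that member. In SDL the 7 endothelial markers summed to 0.0916 to 349 RPKM (median 93.1), with Emcn at 348 in replicate 10. The 6 leukocyte markers summed to 13.5 to 1854 in S1, 204 to 2042 in S2, 19.9 to 788 in S3, 326 to 979 in mTAL, 330 to 955 in cTAL and 43.1 to 1088 in DCT. In SDL the leukocyte markers summed to 0.460 to 1390. Cd74 had the highest mean of them in each of these segments; in S2 Tyrobp had a mean of 104, C1qb of 84.3 and C1qa of 36.2, while Ptprc was at 3.79 in S2 and at 0 in all mTAL libraries. The part of endothelial and leukocyte markers in the results was not tested.

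**Figure D1:**
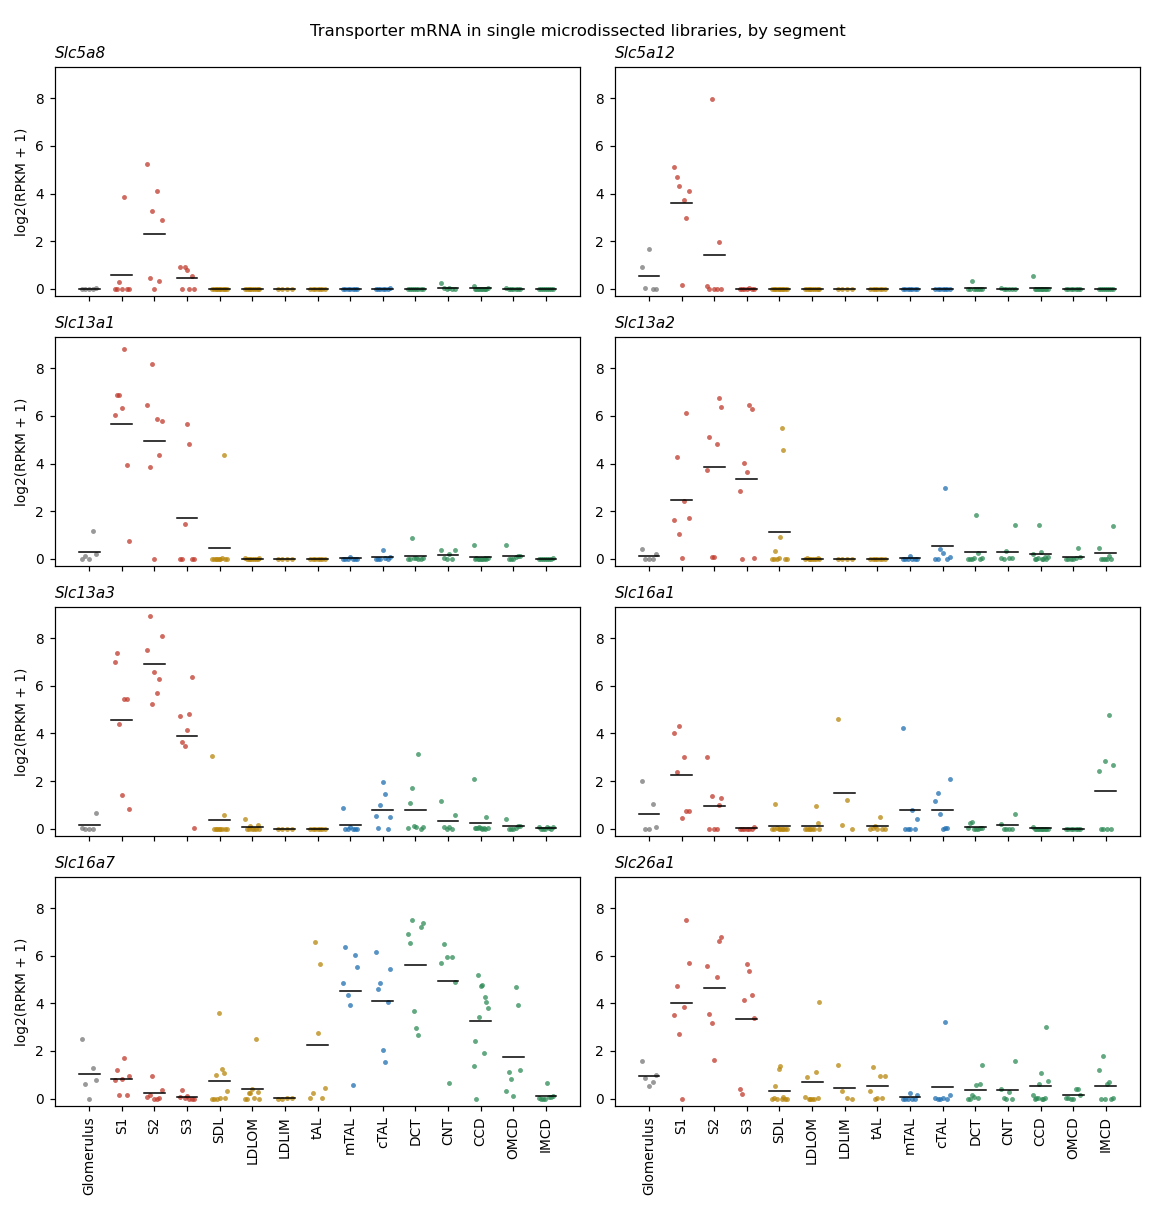
Level of the 8 transporters as log2(RPKM + 1), 1 panel per gene, with 1 point per library and a black line at the mean of each segment or of glomeruli (red proximal, ochre thin limbs, blue thick limbs, green distal tubule and collecting duct, grey glomeruli). Slc5a8, Slc5a12, Slc13a1, Slc13a2, Slc13a3 and Slc26a1 lie mostly above 0 in S1, S2 or S3, and Slc16a7 from tAL to OMCD.

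The 8 genes fell into a proximal group of 6, a distal carrier, Slc16a7, and a scattered one, Slc16a1, as the plot of levels by segment shows. Of the summed segment means, S1, S2 and S3 held 99.6% for Slc5a8, 99.9% for Slc5a12, 98.8% for Slc13a1, 89.9% for Slc13a2, 98.4% for Slc13a3 and 93.8% for Slc26a1. For Slc16a1 that share was 34.7% and for Slc16a7 0.463%, with 98.7% of Slc16a7 between tAL and OMCD. Outside the proximal tubule no library of 84 reached 1 RPKM of Slc5a8 or Slc5a12, 1 did for Slc13a1, 7 for Slc13a2, 9 for Slc13a3 and 13 for Slc26a1.

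Against the other 11 segments, limma called 6 of the 8 members higher in S1 to S3 and 1 lower. A call needs an adjusted p (Benjamini-Hochberg over 11078 tested genes) under 0.05 and a log2 change of at least 1; all 8 passed the filter of 1 RPKM in at least 4 libraries. Of all tested genes 6.87% were called higher and 15.4% lower. The log2 change was 4.86 ± 0.28 (SE) for Slc13a3, 4.01 ± 0.30 for Slc13a1, 3.59 ± 0.31 for Slc26a1, 2.96 ± 0.33 for Slc13a2, 1.67 ± 0.21 for Slc5a12 and 1.11 ± 0.16 for Slc5a8, with limma adjusted p between 1.71e-30 and 8.94e-09. These SEs and p-values rest on a spread pooled with segments in which the 6 genes are mostly near 0. The SD within segments on the log2 scale was 1.48 in the proximal segments against 0.66 over all for Slc5a8. It was 1.96 against 0.87 for Slc5a12 and 2.56 against 1.22 for Slc13a1. The SEs of these genes thus understate the spread among proximal libraries. Slc16a7 was lower by a log2 change of -2.14 ± 0.39 (limma adjusted p = 4.39e-06). Its SD was smaller in the proximal segments, 0.38 against 1.51. Slc16a1 differed by 0.60 ± 0.23 (limma adjusted p = 0.0413), under the limit on size. Slc5a8, Slc5a12 and Slc13a1 passed the filter only through proximal libraries (5, 8 and 15 of 21, with 0, 0 and 1 of 84 others at 1 RPKM), so having passed it they had to differ and their calls are a description. Slc16a7 passed it only through the other segments (48 of 84 libraries, with 2 of 21 proximal ones at 1 RPKM). Its lower call is therefore a description as well. The call for Slc5a8 ended without S1 replicate 5 (0.93) or without S2 replicate 1 (0.95), and was kept without both S1 replicate 5 and S2 replicate 6 (1.04). The median change was 2.32 for the 8 members and -0.36 for all tested genes; quantile normalization moved the latter to -0.09 and the share of calls that were higher from 30.8% to 51.8%.

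**Figure D2:**
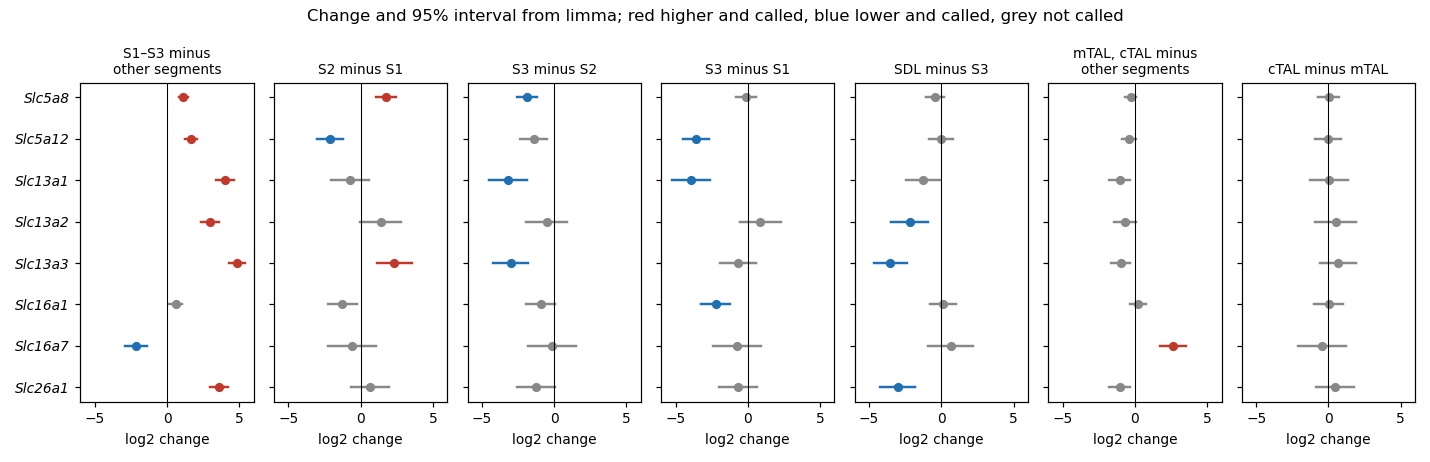
Change of each member in the 7 segment comparisons on the log2(RPKM + 1) scale, with points for the change and bars for its 95% interval from limma; red and blue mark called members, higher and lower. The 6 proximal genes are right of 0 in the first panel, and Slc16a7 is the only called member in the panel of the thick limbs.

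The sodium-coupled monocarboxylate pair had unlike places within the proximal tubule. Slc5a12 stood at 33.9, 24.7, 18.8, 0.127, 12.2, 6.93 and 16.2 RPKM in S1 replicates 1 to 7. In S2 it stood at 0.0924, 0, 248, 0, 0, 2.89 and 0, and in S3 at most at 0.00923. Thus 6 of 7 S1 libraries were above 6 of 7 S2 libraries, S2 replicate 3 was above all others, and every S1 library was above every S3 library. The arithmetic means, 16.1 ± 11.2 in S1 and 35.9 ± 93.6 in S2 (SD, n = 7 each), were in the reverse order, while the medians were 16.2 and 0. In the table without polyadenylation-site data S2 replicate 3 stood at 13.3, still the highest of S2, and S1 replicate 2 at 32.01.

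Slc5a8 stood at 37.0, 0.359, 8.52, 0, 16.1, 0.268 and 6.34 RPKM in S2 replicates 1 to 7 (mean 9.81 ± 13.4 SD, n = 7). In S1 it was at 0 in 5 libraries, at 0.210 in replicate 3 and at 13.5 in replicate 5, the library with Cyp24a1 at 17.6 and Slc7a13 at 207. In S3 it stood between 0 and 0.874, and in the other 84 libraries at most at 0.191. So 4 S2 libraries and 1 S1 library were above 1 RPKM, and S2 overlapped both neighbours. In the authors' other deposited table, made without polyadenylation-site data, Slc5a8 was at 8.22 in S2 replicate 7, at 0.403 in S2 replicate 6 and at 0 in the other S2 and all S1 libraries. In the main table the S2 library of replicate 3 held Slc5a12 at 248 and Slc5a8 at 8.52, and S1 replicate 5 held 12.2 and 13.5.

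The medians of this pair had opposite orders in S1 and S2 of the main table, while the arithmetic means of both were higher in S2. Their RefSeq promoters differ in base composition, and a link to the levels was not tested. Over the 250 bases before the start, Slc5a8 has 66.8% G and C with 25 CG pairs and Slc5a12 has 39.6% with 0 CG pairs, against medians of 51.2% and 5 over 33469 promoters of that length. The last 100 bases before each start are shown, at chr7:25160180-25160279 (plus strand) for Slc5a8 and chr3:117633787-117633886 (plus strand) for Slc5a12 of GRCr8, a later build than that of the values.
Slc5a8: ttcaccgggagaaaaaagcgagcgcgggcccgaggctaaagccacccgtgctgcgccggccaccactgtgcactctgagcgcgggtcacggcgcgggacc
Slc5a12: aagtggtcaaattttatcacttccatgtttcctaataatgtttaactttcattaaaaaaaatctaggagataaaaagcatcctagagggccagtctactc
Both were searched on both strands for GTTAAT, a part of the HNF1 site, and CAAAGTCCA, a site of HNF4, factors of the proximal tubule; neither stretch has capitals because neither motif was found. Over the promoters of all 8 members GTTAAT was found in 1, that of Slc16a7 shown further on, and CAAAGTCCA in 0, while 7.45% and 0.391% of the 33469 promoters of 300 bases hold them.

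The dicarboxylate carriers were present along the whole proximal tubule. Slc13a3 stood at 180, 484, 36.6, 95.4, 50.9, 76.8 and 269 RPKM in S2 replicates 1 to 7, a mean of 170 ± 161 (SD, n = 7). In S1 it ranged from 0.773 to 167 (median 42.2) and in S3 from 0.00580 to 82.3 (median 16.9). All 7 S2 libraries were above 36 RPKM, which 4 S1 libraries and 1 S3 library reached, so the groups overlapped. Slc13a2 had means of 14.0 ± 25.3, 37.5 ± 41.5 and 28.5 ± 37.9 RPKM in S1, S2 and S3 (SD, n = 7 each), with medians of 2.32, 27.0 and 11.7. Its highest libraries were S2 replicate 6 at 106, S3 replicate 5 at 87.8, S2 replicate 7 at 82.5, S3 replicate 6 at 78.4 and S1 replicate 6 at 69.6. Of these, S3 replicate 5 is the library that also held Slc12a3 at 65.8. The spread of Slc13a2 within segments covered the range between them. Per length Slc13a3 was above Slc13a2 in 5 of 7 S1, 6 of 7 S2 and 4 of 7 S3 libraries.

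The sulfate carriers also lay along the whole proximal tubule, with Slc13a1 falling away in S3. Slc13a1 stood at 64.2, 117, 117, 79.7, 447, 14.3 and 0.683 RPKM in S1 replicates 1 to 7. In S2 it stood at 87.6, 13.4, 286, 0, 56.9, 19.5 and 54.1, and in S3 at 0, 0, 1.73, 50.3, 27.3, 0 and 0. It was thus above 10 RPKM in 6 of 7 S1 and 6 of 7 S2 libraries but in 2 of 7 S3 libraries. Slc26a1 had means of 40.7 ± 63.2, 43.9 ± 43.5 and 19.3 ± 19.0 RPKM in S1, S2 and S3 (SD, n = 7 each), with medians of 13.4, 33.6 and 16.6, and the 3 segments overlapped. Per length Slc13a1 was above Slc26a1 in 5 of 7 S1 and 4 of 7 S2 libraries, and Slc26a1 was above Slc13a1 in 6 of 7 S3 libraries. In the table without polyadenylation-site data the means were in the reverse order, 40.3 for Slc13a1 and 60.1 for Slc26a1 in S1 and 34.4 and 63.2 in S2, with Slc13a1 above in 4 of 7 S1 and 3 of 7 S2 libraries. In RefSeq Slc26a1 overlaps Idua, Slc13a3 overlaps Elmo2, Slc13a1 overlaps Thrap3-ps3 and Slc16a7 overlaps LOC102552186, and the sources used here do not say that counting used the strand. Idua reached 357 RPKM in tAL replicate 2, the library with the highest Slc26a1 of tAL, 1.53. In S3 replicate 5 Idua stood at 350 and Slc26a1 at 40.1. Elmo2 reached 62.3 in SDL, where Slc13a3 was at most 7.20. Whether reads of overlapping genes entered the values of the members was not tested.

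Between neighbouring proximal segments the fit over all 14 segments made calls in both directions. From S1 to S2 it called 2 members higher, where 0.46% of all tested genes were, and 1 lower, where 0.135% were. Slc5a8 rose by a log2 change of 1.73 ± 0.35 (SE; limma adjusted p = 0.00146) and Slc13a3 by 2.34 ± 0.62 (limma adjusted p = 0.0429), and Slc5a12 fell by 2.15 ± 0.45 on the log2 scale (limma adjusted p = 0.00268). From S2 to S3 it called 0 members higher and 3 lower (0.226% and 0.659% of all tested genes): Slc13a1 (-3.22 ± 0.66, limma adjusted p = 0.000940), Slc13a3 (-3.01 ± 0.62, limma adjusted p = 0.000967) and Slc5a8 (-1.88 ± 0.35, limma adjusted p = 0.000183). From S1 to S3 it also called 0 higher and 3 lower (0.966% and 0.912%): Slc13a1 (-3.95 ± 0.66, limma adjusted p = 5.22e-06), Slc5a12 (-3.58 ± 0.45, limma adjusted p = 1.23e-09) and Slc16a1 (-2.23 ± 0.50, limma adjusted p = 0.00213). These 3 comparisons share libraries. Slc5a8 passed the filter through 4 S2 libraries and 1 S1 library and Slc5a12 through 6 S1 and 2 S2 libraries, so their calls here too come from genes kept through the segment where they are high. Slc13a2 and Slc26a1 were called in none of them, with 95% intervals from -0.03 to 2.80 and from -0.69 to 1.95 for S2 minus S1. From S2 to S3 quantile normalization moved the share of all calls that were higher from 25.5% to 35.7%.

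These calls rest on a spread pooled with segments in which the genes are near 0. The SD within segments on the log2 scale was 1.96 in the proximal segments against 0.87 over all 14 for Slc5a12, 1.48 against 0.66 for Slc5a8, 2.56 against 1.22 for Slc13a1 and 2.02 against 1.05 for Slc13a3. With only the 2 segments compared in the fit, or only S1, S2 and S3, limma called 0 members in any of the 3 comparisons. The limma adjusted p for S1 to S3 was then 0.0565 and 0.0768 for Slc5a12 and 0.0602 and 0.105 for Slc13a1. An exact two-sided permutation test of each member over the 7 and 7 libraries, unadjusted and among 33 such tests chosen after seeing the data, gave for S1 to S3 p = 0.000583 for Slc5a12 and for Slc16a1, the smallest p this design can give, and p = 0.0175 for Slc13a1. For S2 to S3 the exact p was 0.0035 for Slc13a3, 0.0472 for Slc13a1 and 0.0536 for Slc5a8. For S1 to S2 the exact p was 0.112 for Slc5a8, 0.117 for Slc5a12 and 0.053 for Slc13a3. Without S1 replicate 5 and S2 replicate 6 each of the 3 comparisons again had 3 called members. The change of Slc5a8 from S1 to S2 was then 2.61, which the choice of libraries fixes in part: the markers were chosen after seeing values, and S1 replicate 5 is the one S1 library with Slc5a8 above 1 RPKM. Without S2 replicate 3 the fall of Slc5a12 from S1 to S2 was -3.24. Without that library its change from S2 to S3 was -0.35, against -1.43 with it (limma adjusted p = 0.166).

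At the end of the proximal tubule, from S3 to the thin descending limb of short loops, 3 members fell and 0 rose, where 3.94% of all tested genes fell and 3.57% rose. Slc13a3 had a log2 change of -3.53 ± 0.57 (SE; limma adjusted p = 7.49e-07), Slc26a1 of -3.02 ± 0.61 (limma adjusted p = 0.000129) and Slc13a2 of -2.20 ± 0.66 (limma adjusted p = 0.0199). With both segments fitted alone, Slc13a3 was the only call left. The limma adjusted p was then 0.0501 for Slc26a1 and 0.276 for Slc13a2, and the call for Slc13a2 also ended without S3 replicate 5 or 6. Exact two-sided permutation p-values over 7 and 10 libraries were 0.000206, 0.00129 and 0.0772 in the same order, unadjusted. Quantile normalization moved the share of all calls that were higher from 47.5% to 36.2% and the median change of all genes from 0.32 to 0.07.

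Single thin limb libraries kept proximal transporters. Slc13a2 was at 43.7 RPKM in SDL replicate 7 and at 22.5 in SDL replicate 8, and at most at 0.859 in the other 8. In replicate 8 Slc13a1 was at 19.4 and Slc34a1 at 63.7. In replicate 7 Slc13a1 was at 0.0114, Slc13a3 at 0 and Slc34a1 at 0.0197, so Slc13a2 stood there without these carriers. Only 2195 genes were detected in replicate 7, and its proximal markers summed to 136 RPKM, against a median of 191 in SDL. Whether the low values of the other carriers come from its depth was not tested. SDL replicate 1 held Slc13a3 at 7.20 with Slc34a1 at 286, and LDLOM replicate 9 held Slc26a1 at 15.6 with Slc34a1 at 60.1. LDLOM replicate 1, with Slc34a1 at 2329, had a summed level of the 6 sodium-coupled and sulfate carriers of 0.396 RPKM. Without SDL replicates 1 and 8 the 3 calls from S3 to SDL remained 3 in number. These libraries held the highest Slc13a3 (7.20) and the second highest Slc13a2 (22.5) of SDL. For those genes the choice of libraries itself widens the fall.

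Slc16a7, the high-affinity monocarboxylate carrier MCT2, had the opposite distribution. Its mean was highest in DCT at 90.5 ± 73.3 RPKM (SD, n = 8), then CNT at 48.2 ± 30.1 (n = 6), mTAL at 36.3 ± 29.2 (n = 7), cTAL at 26.3 ± 23.9 (n = 7), tAL at 21.5 ± 37.0 (n = 7), CCD at 13.9 ± 11.7 (n = 11) and OMCD at 6.00 ± 9.52 (n = 7). Neighbours in this order overlapped in every case. In IMCD its highest library was at 0.558, in S2 and S3 the highest was at 0.921, and S1 ranged from 0.0999 to 2.27.

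Within these segments libraries were uneven. In DCT 5 libraries stood between 90.4 and 178 RPKM and 3 (replicates 4, 5 and 6) between 5.38 and 11.9, while the DCT carrier Slc12a3 stood at 45.0, 366 and 113 in those 3. Slc12a1 stood at 0.00958, 0.327 and 1.88 in the same 3, and between 2.41 and 80.1 in the other 5. In the 3 low libraries 2480, 5617 and 4200 genes were detected. A link of these values to Slc16a7 was not tested. In mTAL Slc16a7 ranged from 0.499 (replicate 5) to 82.3 and in CNT from 0.571 (replicate 4) to 88.3. In tAL 3 of 7 libraries were above 1 RPKM, at 94.8, 5.73 and 49.5 in replicates 3, 4 and 5, and the median was 0.346. The highest and second highest tAL libraries are those with Slc12a1; without them the tAL mean was 1.26 ± 2.50 (SD, n = 5) in place of 21.5. Over tAL, mTAL, cTAL, DCT, CNT, CCD and OMCD, 43 of 53 libraries were at 1 RPKM or more and 32 at 10 or more.

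The promoter of Slc16a7, the one member with a match, holds GTTAAT, in capitals, starting 38 bases before the start. The stretch is chr7:63040399-63040498 (minus strand) of GRCr8, from RefSeq.
Slc16a7: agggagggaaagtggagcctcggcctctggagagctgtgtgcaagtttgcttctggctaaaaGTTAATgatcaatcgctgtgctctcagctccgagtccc

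In mTAL and cTAL against the other 12 segments Slc16a7 was higher by a log2 change of 2.63 ± 0.46 (SE; limma adjusted p = 1.39e-05), the 1 member called of 8, where 1.64% of all tested genes were higher. None of the members was called lower, where 2.34% of all tested genes were, and the unadjusted limma p was under 0.05 for 4 of the 8. Of the others Slc13a1 (-1.06), Slc26a1 (-1.05) and Slc13a3 (-0.98) had limma adjusted p of 0.0638, 0.0725 and 0.07. Without the 2 tAL libraries with Slc12a1 the change of Slc16a7 was 2.76, and over 18 fits that left out 1 library it was 2.46 to 2.96. Those 2 libraries were the highest of tAL in Slc16a7, so leaving them out in itself raises the change. Under quantile normalization 64.2% of all calls were higher, against 41.3%. From mTAL to cTAL 0 members were called, where 0.993% of all tested genes were higher and 0.0361% lower, with 114 genes called in all, and 0 of the 8 had an unadjusted limma p under 0.05. The change of Slc16a7 there was -0.43, with a 95% interval from -2.11 to 1.25. The median over all genes was 0.55 and fell to -0.03 with quantile normalization, which moved the share of higher calls from 96.5% to 83.1%.

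Slc16a1, the widespread carrier MCT1, was low and uneven. It was highest in S1, at 15.1, 4.19, 18.7, 0.365, 7.05, 0.670 and 0.694 RPKM in replicates 1 to 7 (mean 6.68 ± 7.46 SD). S2 ranged from 0 to 7.08 and in S3 6 libraries were at 0 and 1 at 0.0451, so that all S1 libraries were above all S3 libraries. Outside the proximal tubule 11 of 84 libraries reached 1 RPKM, among them IMCD replicates 1, 4, 6 and 8 at 4.32, 6.08, 26.1 and 5.47, LDLIM replicate 1 at 23.3 and mTAL replicate 1 at 17.7. In OMCD it was listed at 0 in all 7 libraries and in CCD in 10 of 11. Per length Slc16a7 was above Slc16a1 in all 8 DCT and all 7 cTAL libraries, and Slc16a1 was above Slc16a7 in 5 of 7 S1 libraries. The glomerulus libraries held 0 to 3.04 RPKM of Slc16a1 and 0 to 4.67 of Slc16a7.

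**Figure D3:**
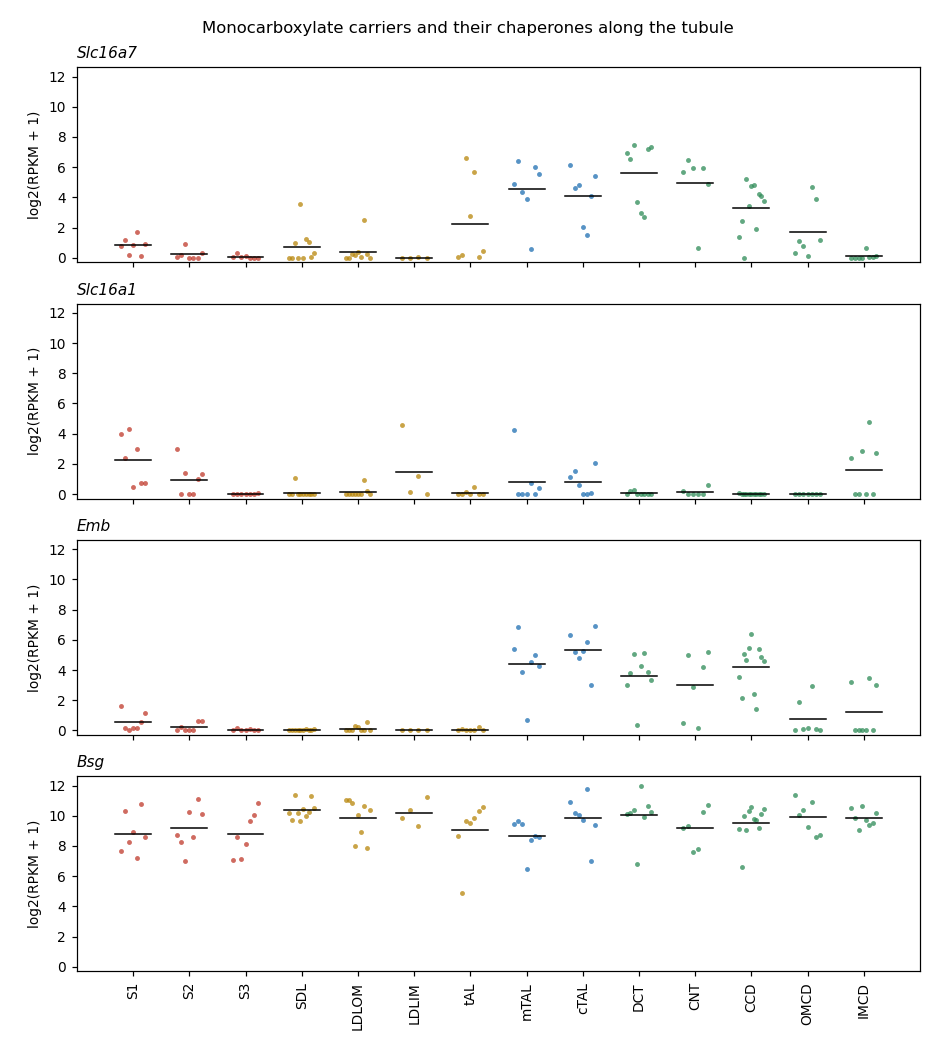
Slc16a7, Slc16a1 and the chaperone genes Emb and Bsg along the tubule as log2(RPKM + 1), 1 point per library and a black line at the segment mean. Emb and Slc16a7 both lie above 0 from mTAL to CCD, Bsg is high everywhere, and the 3 tAL libraries with Slc16a7 above 1 RPKM have almost no Emb.

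The chaperone genes had unlike patterns. Embigin, the partner of MCT2, had means of 34.6 ± 37.4 RPKM in mTAL, 51.6 ± 36.6 in cTAL (n = 7 each), 15.9 ± 11.7 in DCT (n = 8), 15.1 ± 15.4 in CNT (n = 6) and 26.9 ± 23.9 in CCD (SD, n = 11), and at most 0.602 in any segment from S1 to tAL. It was higher in the thick limbs by 3.71 ± 0.38 (limma adjusted p = 9.9e-14) and lower in the proximal tubule by a change of -1.79 ± 0.32 (limma adjusted p = 3.6e-06). In tAL replicates 3 and 5, with Slc16a7 at 94.8 and 49.5, Emb stood at 0.0416 and 0.00735. Basigin had segment means of 485 to 1452 RPKM, and was lowest in mTAL.

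Genes of related pathways were described by lists. Of the other Slc16 carriers and chaperones 12 of 14 were tested, and in the proximal tubule 5 were higher and 3 lower (median change 0.53), where 6.87% and 15.4% of all tested genes were. Among those higher were Slc16a4 (4.36) and Slc16a14 (2.73). From S2 to S3, where 0.659% of all tested genes fell and 98 calls became 10 with both segments fitted alone, 3 of the 12 fell, among them Slc16a6 (-2.23) and Slc16a14 (-2.06), and from mTAL to cTAL 1 rose, Slc16a5 (3.77). Of 9 tested genes of lactate and pyruvate handling 2 were higher in the proximal tubule, the gluconeogenic Pck1 (7.21) and Ldhd (1.82), and 2 lower, Ldha (-2.02) and Pdha1 (-1.25); the median change was -0.54. In the thick limbs Ldhb, the lactate dehydrogenase subunit typical of oxidative tissue, was higher (3.34) and Pck1 lower (-1.49).

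Of 9 tested genes of dicarboxylate and citrate handling 6 were higher in the proximal tubule and 0 lower (median change 1.54, against -0.36 for all tested genes). They included the scaffold gene Pdzk1 (6.54), the organic anion exchangers Slc22a6 (5.06) and Slc22a8 (4.76), which run on dicarboxylate exchange, and the mitochondrial citrate carrier Slc25a1 (1.70). Slc22a8 fell from S2 to S3 (-4.23), as did Slc13a3. From S3 to SDL 5 of the 9 fell, where 3.94% of all tested genes did, among them Pdzk1 (-6.63), Slc22a6 (-4.06), Slc25a10 (-4.02) and Aco1 (-3.31). Of 8 tested genes of sulfate and anion exchange 0 were higher in the proximal tubule and 1 lower, Slc26a4 (-1.45), the intercalated cell anion exchanger (median change -0.37). From S3 to SDL Papss1, which activates sulfate, rose (3.63). All changes in these lists are on the log2(RPKM + 1) scale and were called by limma with an adjusted p under 0.05.

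By the correlation of segment means of log2(RPKM + 1) over the 14 segments, the genes most like each member among 11078 were Cyp24a1 (0.999), Ccl24 (0.997) and Slc6a4 (0.981) for Slc5a8, and Smlr1 (0.999), Akr1c1 (0.998) and Enpp2 (0.996) for Slc5a12. Acsm1 (0.997), Galnt14 (0.992) and Spp2 (0.992) were most like Slc13a1, and Bhmt2 (0.980), Cyp4a3 (0.976) and Serpinf2 (0.974) most like Slc13a2. Slc6a13 (0.995), Dao (0.994) and Gba3 (0.993) were most like Slc13a3, and Slc22a25 (0.994), Dao (0.992) and Espn (0.989) most like Slc26a1. For Slc16a7 the closest were Tmem72 (0.900), Kcnj10 (0.897) and Igfbp1 (0.895), and for Slc16a1 the closest was Cxcl16 (0.817). The means share libraries and their depth. Among the members, Slc13a3 and Slc26a1 were most alike (0.977), Slc13a2 and Slc13a3 next (0.957), and Slc16a7 was negative with each of the other 7 (-0.257 to -0.470).

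The gene models behind the values matter for some members, as the plot of both deposited tables shows. The table made without polyadenylation-site data gave Slc5a8 in S2 a mean of 1.23 RPKM in place of 9.81, Slc16a1 in S1 0.956 in place of 6.68, Slc13a1 in S1 40.3 in place of 120, and Slc5a12 in S2 2.43 in place of 35.9 and in S1 9.12 in place of 16.1. For Slc13a3 in S2 (170 in both), Slc13a2 in S2 (43.9 and 37.5) and Slc16a7 in DCT (93.7 and 90.5) the tables were close, and Slc26a1 in S2 was higher without these data (63.2 and 43.9). Only 1 of the tubule libraries held Slc5a8 at 1 RPKM there, so it did not pass the filter and its 3 calls were lost. Members called were 6 in the proximal tubule in place of 7, 1 from S1 to S2 in place of 3, and 2 in place of 3 both from S2 to S3 and from S1 to S3. The call of Slc16a1 from S1 to S3 ended in that table (-0.69, limma adjusted p = 0.702), as did that of Slc13a3 from S1 to S2 (limma adjusted p = 0.0598). There the segment with the highest mean was S1 for Slc5a12 and LDLIM for Slc16a1, and the same as in the main table for the other 6.

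**Figure D4:**
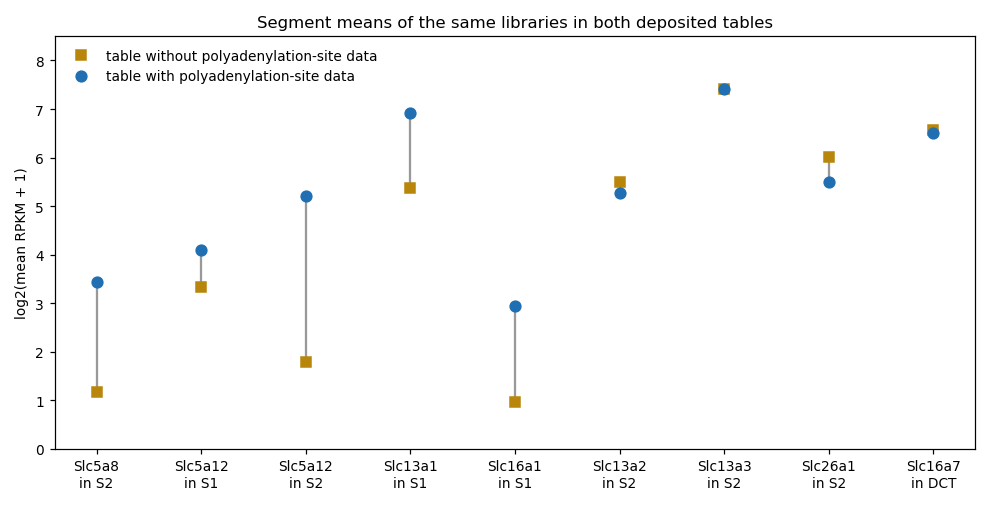
Mean of each member in the segment named under it, as log2(mean RPKM + 1), in the table with polyadenylation-site data (blue circles) and without (ochre squares). Of the 9 pairs the gap is widest for Slc5a12 in S2 (35.9 and 2.43), and Slc13a3 in S2 is at 170 in both.

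Under water load, Slc16a7 was the only member of the 8 above the filter of 1 RPKM in at least 4 of the 8 libraries of cortical collecting duct. It stood at 15.7, 10.2, 3.29 and 21.0 RPKM in control rats 1 to 4 and at 34.3, 29.6, 22.2 and 25.1 in water-loaded rats 1 to 4. Each water-loaded rat was above each control. The means were 12.5 ± 7.58 and 27.8 ± 5.31 (SD, n = 4 each), a log2 change of 1.30 ± 0.46 (SE). It did not pass the test over all 8492 genes (limma adjusted p = 0.538). Of those genes 0.0942% were called higher and 0.0589% lower, 13 in all with 61.5% of them higher; quantile normalization called 9, with 44.4% higher. Taking rats of the same number as pairs, the adjusted p of limma was 0.249. The exact two-sided permutation p was 0.0286, unadjusted, the smallest that 4 against 4 can give. It is 1 of the 33 such tests chosen after seeing the data. Without pairing the unadjusted limma p of Slc16a7 was 0.0136, and 632 of the 8492 tested genes had one under 0.05. How many of those tested genes separate the rats as fully as Slc16a7 was not counted. Emb stood at 144 ± 64.9 in controls and 99.7 ± 14.2 in water-loaded rats, and Ldhb at 723 ± 204 and 1194 ± 318 (SD, n = 4 each); neither passed the test. The other 7 members stood at most at 6.29 RPKM, Slc13a2 in 1 control. The water-load table was made separately, so its levels are not set beside those of the segments.

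**Figure D5:**
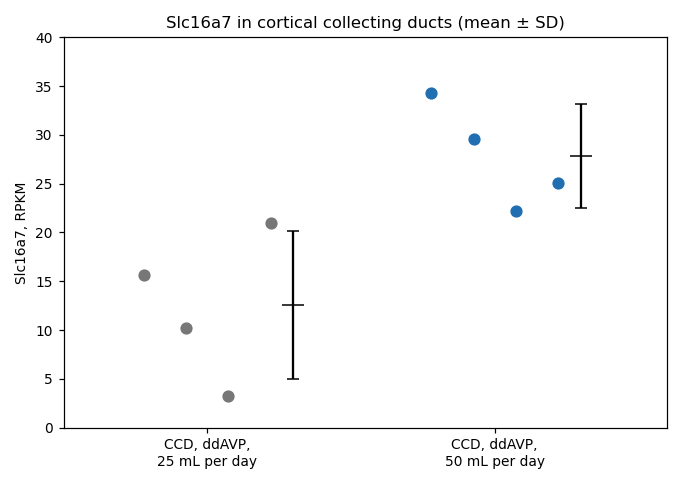
Slc16a7 in RPKM in cortical collecting ducts of ddAVP-treated rats on 25 or 50 mL of water per day, 1 point per rat, with mean and SD beside the points. The 4 water-loaded rats lie between 22.2 and 34.3, above the 4 controls.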

How the data were processed

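RNA sequencing values of microdissected rat tubules were used as deposited, in RPKM, which the authors computed per RefSeq transcript, per the file headers and the labels. Build rn5, HOMER, SAMtools, STAR 2.3.0-r192 and Trimmomatic 0.32 stand in the submitters' processing notes without order or settings. Per the labels, amplification was of the kind used for single cells, with reads of 50 nt from both ends. The table made with polyadenylation-site data was the main one. How those data entered it is not stated. No counts are given, so the depth is unknown and no counting limits can be stated; genes at 1 RPKM or more stand in for it.

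Values were taken as log2(RPKM + 1). For symbols with several entries the one with the highest mean was kept. Testing took genes that reached 1 RPKM in 4 or more of the fitted libraries, with limma 3.58.1 in R 4.3.3 (trended moderated test, two-sided, Benjamini-Hochberg over all tested genes). All tubule libraries shared 1 fit, and the 8 water-load libraries had their own, with no limit on the size of a change. The test was checked on simulated data with normal errors and, for each gene, the same SD in every segment. That setting lacks the unequal spread and the many zeros of the members, so the check does not cover them. Changes are on the log2(RPKM + 1) scale and understate those of low genes. Python 3.11.15 and pandas 2.3.3 prepared tables.

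The members and lists were chosen with earlier results of these data known. Every member was followed in every comparison, with values for those called and for others where a result turns on them; of each list up to 4 called genes by smallest p, and for each member the 3 genes with the closest segment means; a few genes this rule names are not reported here. A shared number was read as a pair only if the deviations of every same-numbered pair correlated above 0.1; only the water-load rats did (0.209 to 0.313), although the labels do not state a pairing. Whole-kidney polyadenylation-site samples and the glomerulus columns of the second table were not used here.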

Additional observations from a re-analysis of the deposited data

Results flagged for a closer look

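Each member with a segment mean of at least 10 RPKM was checked for a library far from the others of its segment, on the log2(RPKM + 1) scale, in groups of 4 to 10 libraries. Of 21 such checks 4 met the criterion, where chance gives about 1 in 20 checks. Slc5a12 was lowest in S1 replicate 4, at 0.127 RPKM where the other 6 libraries stood between 6.93 and 33.9; 2066 genes were detected in that library. Slc5a12 was highest in S2 replicate 3, at 248 RPKM where the others stood between 0 and 2.89; in the table without polyadenylation-site data it stood at 13.3 in that library. Slc16a7 was lowest in mTAL replicate 5, at 0.499 RPKM against 14.2 to 82.3, and lowest in CNT replicate 4, at 0.571 RPKM against 29.0 to 88.3. In these libraries 2058 and 2064 genes were detected, in the same order. The mTAL library of replicate 4, with 1795 genes, held Slc16a7 at 14.2. The part of depth was not tested.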

How the results depend on the processing

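Of 863 values of single members under other settings, 819 kept their direction and side of the threshold, 36 lost a call, 2 gained one and 6 changed direction. Fits that left out 1 library gave 535 of the 863, with 520 of the 819 but only 10 of the 36 lost calls. The 819 include uncalled members that stayed uncalled. With both segments fitted alone the members called were 0 from S1 to S2, from S2 to S3 and from S1 to S3 (3 each in the full fit) and 1 from S3 to SDL (3). With the 3 proximal segments alone, chosen after seeing the data, they were again 0 in the first 3 comparisons; both kinds of fit hold fewer samples. From S1 to S2 the table without polyadenylation-site data called 1; Slc5a8 did not pass the filter there. In the thick limbs a pseudocount of 0.1 and quantile normalization each called 2 members (1 with all libraries as deposited), as did leaving out 10 libraries with markers of other segments or of endothelium, chosen after seeing the data, and leaving out single libraries 1 to 2. Leaving out single libraries otherwise gave 6 to 7 members in the proximal tubule, 2 to 3 from S1 to S2, 3 to 4 from S2 to S3, 3 from S1 to S3, 2 to 3 from S3 to SDL, and 0 from mTAL to cTAL and under water load. Changes of direction concerned uncalled members: Slc13a1 from S1 to S2 (-0.73) was 0.32 in the table without polyadenylation-site data, 0.20 without libraries under 2500 genes and -1.55 to 0.09 (0.0874) without single libraries. Slc26a1 from S1 to S2 was -0.04 (-0.0381) to 1.21 and Slc13a2 from S2 to S3 -1.15 to 0.03 (0.0346) without single libraries. The cause was not tested. The call of Slc13a3 from S1 to S2 was also lost with a pseudocount of 0.1, quantile normalization, without libraries under 2500 genes, and in 6 of 14 fits without 1 library; its call from S2 to S3 was lost with a pseudocount of 0.1. Slc5a12 from S2 to S3 was called without libraries under 2500 genes (-1.67, adjusted p of limma = 0.0376).

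Genes called in all moved by over 1.5 times as follows. From S1 to S2, 66 became 38 (pseudocount 0.1), 37 (without libraries under 2500 genes), 6 (both segments alone), 1 (3 segments alone) and 121 (without the 2 libraries with markers of the neighbouring segment). From S2 to S3, 98 became 10 and 2, and from S1 to S3, 208 became 62 and 53, with both or 3 segments alone. From S3 to SDL, 833 became 1283 without libraries under 2500 genes and 414 with both segments alone. In the thick limbs 441 became 701 with quantile normalization. From mTAL to cTAL 114 became 193 (pseudocount 0.1), 59 (quantile), 56 (detected genes as covariate), 52 (both alone) and 74 to 191 (single libraries left out). Under water load 13 became 0 (pseudocount 0.1 or no filter), 25 (array quality weights), 29 (replicate block) and 0 to 7 (single rats left out). With the replicate block no member's call changed in any of the 8 comparisons; segment numbers did not meet the rule for pairing (S1 with S2 -0.123 to 0.724).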
